A study of Homo sapiens with 8 samples.

Results

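The regions described here are 1993 narrow peaks that lie inside protein-coding genes, out of 31395 peak intervals counted in an acetylated RNA immunoprecipitation (acRIP) experiment on 2 human osteosarcoma cell lines. A peak was taken when its interval was shorter than 300 bp, overlapped the span of exactly 1 protein-coding gene of GRCh38, lay more than 500 bp from both ends of that span, and had a mean of 100 or more counts over the 4 libraries. Of all peaks, 15260 overlapped exactly 1 protein-coding gene, 13480 of these lay away from its ends, and 11581 of those were narrow, of which 9588 were left out because their mean count was under 100. The rule therefore used the counts themselves, so the height of these peaks is a description and not a finding. The 1993 peaks lay in 1313 genes, of which 947 held 1 such peak and 366 held 2 or more. HOS is a cell line from a human osteosarcoma, and 143B was derived from HOS. The libraries were an NC (control) and an sgNAT10 (NAT10 knockout) library of 143B, and an NC and an sgNAT10 library of HOS, each from poly(A) RNA recovered with an anti-ac4C antibody. No agent or time is given for any of them, and whether a knockout line is 1 clone or a pool of cells is not given in the sources used here. Each line and genotype had 1 library, so no comparison within a line has replicates.

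N4-acetylcytidine (ac4C) is a cytidine that carries an acetyl group. NAT10 is the acetyltransferase known to write it, first described in ribosomal and transfer RNA and later reported in messenger RNA, where it has been linked to translation and to the stability of the transcript. In an acRIP library, reads pile up where fragments bound by the antibody came from, so the count of a peak depends on both the amount of the RNA and how much of it was bound. Input libraries were not used here, and these contributions cannot be told apart in the values below.

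Sequence was at hand only where a peak overlapped a RefSeq promoter window of another or the same gene (GRCh38.p14, 250 bases before to 50 after a gene start), which was the case for 15 of the peaks whose gene had a known strand. A set of 5 of these stretches is shown as examples of the sequence under such peaks, 3 of them in RPL27, COL4A2 and VIM, genes of the ribosome, the matrix and the cytoskeleton. Each is on the strand of its host gene, with every match to CNNCNNCNNCNN, a cytidine repeat reported for ac4C sites, in capitals. The stretches are chr17:42999885-43000148 (plus strand) for RPL27, chr2:9388261-9388438 (plus) for ASAP2, chr13:110508130-110508239 (plus) for COL4A2, chr10:17229936-17230008 (plus) for VIM and chr2:135661188-135661294 (plus) for R3HDM1.
RPL27: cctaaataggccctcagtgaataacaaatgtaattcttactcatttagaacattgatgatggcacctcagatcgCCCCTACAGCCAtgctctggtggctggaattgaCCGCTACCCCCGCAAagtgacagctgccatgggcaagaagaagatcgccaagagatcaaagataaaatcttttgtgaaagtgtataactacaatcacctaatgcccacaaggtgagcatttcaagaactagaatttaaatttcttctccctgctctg
ASAP2: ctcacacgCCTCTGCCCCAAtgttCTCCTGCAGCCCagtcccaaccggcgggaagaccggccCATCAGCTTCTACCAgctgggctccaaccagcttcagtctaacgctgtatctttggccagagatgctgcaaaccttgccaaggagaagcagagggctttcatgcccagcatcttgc
COL4A2: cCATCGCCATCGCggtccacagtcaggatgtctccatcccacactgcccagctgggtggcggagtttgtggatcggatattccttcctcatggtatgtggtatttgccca
VIM: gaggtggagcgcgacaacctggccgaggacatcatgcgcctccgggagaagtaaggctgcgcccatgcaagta
R3HDM1: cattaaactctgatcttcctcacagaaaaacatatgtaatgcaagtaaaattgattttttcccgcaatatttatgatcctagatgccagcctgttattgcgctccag

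Matches may overlap each other. On the printed strand the motif started 3 times in the RPL27 stretch, 4 times in that of ASAP2 and 1 time in that of COL4A2, and it had no match in those of VIM and R3HDM1. On the other strand it started 2 times in ASAP2 and 1 time in COL4A2. The motif is common: among 35116 promoter windows trimmed to the same length, 72.3% held it at the length of the RPL27 stretch, 62.7% at that of ASAP2, 48.9% at that of COL4A2, 48.0% at that of R3HDM1 and 36.8% at that of VIM. A match or its lack is a description of these letters alone.

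Some of these intervals also cover a microRNA, a short RNA that pairs with messenger RNAs through its seed. Of the 1993 peaks, 5 overlapped a miRNA gene, and the mature sequences in the one of RPS19, a protein of the small ribosomal subunit, are given with the seed (bases 2 to 8) in capitals. They are shown because this was the best-counted peak of the kind, and they lie at chr19:41869632-41869656 and chr19:41869675-41869696 (plus strand).
hsa-miR-6797-5p: aGGAGGGAaggggcugagaacagga
hsa-miR-6797-3p: uGCAUGACccuucccuccccac

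The RPS19 peak over this pair had 1085 and 2343 counts in 143B NC and sgNAT10, and 1894 and 1943 in HOS NC and sgNAT10. Reads of the host transcript and of a miRNA precursor cannot be told apart in these counts.

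Totals over all peaks ran from 20107718 counts (143B NC) to 24785306 (HOS NC), and the 1993 peaks held between 3.44% of them (143B NC) and 4.78% (HOS sgNAT10) (95% Wilson intervals 3.43 to 3.45% and 4.77 to 4.79%). Reads carry no molecular identifier, so intervals here cover counting error only. The 143B library labelled sgNAT10 stood apart over these peaks: ranked by count, it correlated with 143B NC at a Spearman rho of 0.556, with the HOS NC library at 0.569 and with the other knockout library at 0.402, while the NC libraries of both lines had 0.806. The peak in NAT10 itself (chr11:34146656-34146807, at the 3′ end of the gene and so not among those described) had 65 and 130 counts in 143B NC and sgNAT10, and 180 and 63 counts in HOS NC and sgNAT10. It was not lower in the 143B library labelled sgNAT10. The part of NAT10 that was targeted is not given, so this peak does not check the knockout, and both knockout libraries are named here by their labels. Of 12 mesenchymal or osteosarcoma markers, 7 had a peak, with a summed level of 355 to 1097 CPM (counts per 1000000) per library, while COL1A1, COL1A2, FN1, THY1 and TWIST1 had none. Leukocyte markers (2 of 5, mostly CD68) summed to 9.82 to 101 CPM, endothelial markers (2 of 4) to 2.60 to 39.3 CPM, epithelial markers (1 of 5) to 0.249 to 35.3 CPM, and mature osteoblast markers (1 of 4) to 0.260 to 1.16 CPM. The highest endothelial, epithelial and leukocyte sums were all in the HOS library labelled sgNAT10, and their part in the results below was not tested.

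The peaks were 95 to 299 bp wide (median 180) and had a median mean count of 206.2, with 32940 as the highest. Their genes were long, with a median span of 42239 bp over the 1313 genes, and 564 peaks lay in spans over 100000 bp. Counts were spread over the libraries in most of them: 1098 peaks had 100 or more counts in each of the 4 libraries and 1744 had 50 or more. Without its highest library, the mean of 375 peaks would have been under 100, and that library was HOS sgNAT10 for 166 of them, 143B sgNAT10 for 97, HOS NC for 92 and 143B NC for 20. Another annotated gene that is not protein-coding overlapped 152 of the peaks, of which 104 overlapped a long noncoding RNA gene and 43 a pseudogene. The gene table holds no exons, so whether a peak is exonic or intronic is not given here.

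In each line most of the peaks were lower in the library labelled sgNAT10 than in NC (1425 of 1993 in 143B and 1403 in HOS). Higher were 28.5% in 143B and 29.6% in HOS, against 51.5% and 63.3% of all peaks that passed a filter on low counts. In both lines 991 were lower, a share not computed over all peaks. With so many lower in each line, this count does not show that the lines agreed. The shift of a peak is its log2 CPM in the library labelled sgNAT10 minus that in NC of the same line, with TMM scaling and a prior count of 1. The median shift was -0.75 in 143B and -0.41 in HOS, while over all 24467 peaks that passed the filter on low counts it was 0.05 and 0.31. Over all 5938 well-counted peaks (mean of 100 counts or above) it was -0.44 and 0.01. Among narrow internal peaks with a lower mean count it was -0.06 and 0.22, among 1011 wide internal peaks -1.76 and 0.63, and among 888 peaks at gene ends 0.54 and -0.61. The set described here is thus the one of these 3 well-counted kinds whose median was below 0 in both lines, and the wide peaks and the gene ends had medians of opposite sign in the 2 lines. These are descriptions of 1 library a group, with no test.

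Counted by size, 778 of the 1993 peaks were at least 2-fold lower in 143B (39.0%, where 21.4% of all peaks tested and 34.4% of well-counted peaks were). At least 2-fold higher in 143B were 186 peaks (9.33%, against 20.1% and 11.3%). In HOS, 469 were at least 2-fold lower (23.5%, against 8.74% and 15.2%) and 90 at least 2-fold higher (4.52%, against 24.4% and 11.2%). The share of lower peaks was thus nearer to that of well-counted peaks in general in 143B than in HOS. Both lines were at least 2-fold lower in 165 peaks of 138 genes (8.28%, against 1.57% and 3.69%) and at least 2-fold higher in 16 (0.803%, against 5.76% and 0.943%). The lines went opposite ways by that size in 61 peaks with the lower value in 143B sgNAT10 and the higher in HOS sgNAT10 (3.06%, against 6.2% and 7.93%) and in 26 with the reverse (1.3%, against 1.73% and 1.6%). With 95% intervals for counting error, both shifts lay below 0 in 726 peaks and above 0 in 94, and the shares of all peaks that did so were not computed. The shifts of the 2 lines had a Pearson correlation of -0.10 across the 1993 peaks, with a Spearman correlation of -0.15. The peaks share their libraries and so are not independent points.

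These directions depend on the scaling. Library totals alone added 0.35 to every 143B shift and 0.59 to every HOS shift, so any shift below 0 by less than that turned positive, among them the HOS median (0.18). With them the HOS counts turned over, to 119 peaks at least 2-fold lower and 310 at least 2-fold higher, and the 143B counts came to 493 and 322. Upper quartile factors added 0.21 in 143B and -0.09 in HOS, and DESeq2 size factors -0.09 and -0.16. The median over all peaks tested moved by about the same steps, to 0.39 and 0.87 with library totals. Each scaling shifts all peaks of a line alike, so the place of the peaks described here below that median could not change.

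**Figure D1:**
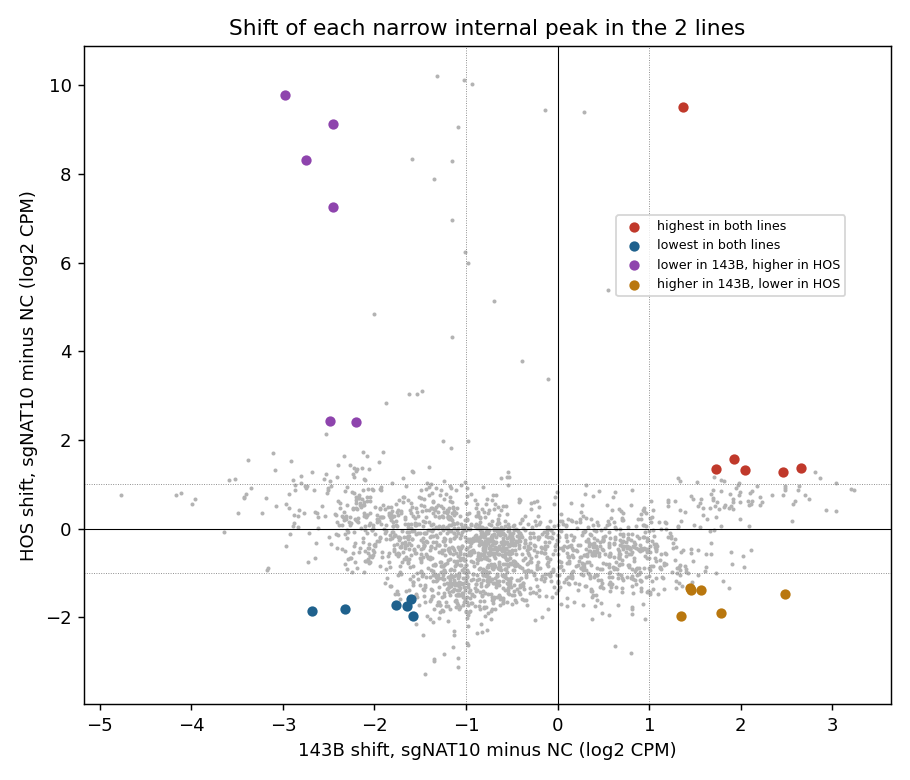
Each grey point is 1 of the 1993 narrow internal peaks, with its shift in 143B on the x axis and in HOS on the y axis (log2 CPM, library labelled sgNAT10 minus NC); dotted lines mark 2-fold, and coloured points are the named peaks at the corners. On each axis most points lie below 0 (1425 in 143B and 1403 in HOS), 991 lie below 0 on both, and a thin set reaches HOS shifts of 3 or more (26 peaks).

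A test was possible only across the lines, with each line as a block. In the edgeR quasi-likelihood test, 0 of 24467 peaks passed an adjusted p of 0.05 (0.0%), with 945 at an unadjusted p under 0.05. Of the narrow internal peaks, 1984 were tested and 21 had an unadjusted p under 0.05, and the smallest adjusted p among them was 0.671, for a peak in ARHGEF16 (log2 change 1.74, SE 0.49, higher in both lines). The DESeq2 Wald test and limma-trend also called 0 peaks, with 500 and 1090 at an unadjusted p under 0.05, of which 142 and 38 were narrow internal peaks. When only the 5938 well-counted peaks were fitted, edgeR called 5 higher (0.0842%) and 1 lower, and 1 of the higher peaks was a narrow internal one, in SKAP1 (adjusted p = 0.000287). That peak had 0, 2, 0 and 753 counts in 143B NC, 143B sgNAT10, HOS NC and HOS sgNAT10, so the call rests on 1 library. It also met the count limit of this fit only through HOS sgNAT10 and had to be high there. The design left 1 residual degree of freedom, and the values that follow are descriptions.

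The 6 peaks lowest in both lines, 1 per gene, were in NR2F2, VGLL3, NUP98, SLC38A2, FSTL1 and CRIM1. A peak in NR2F2 (chr15:96331247-96331468), an orphan nuclear receptor, had 214 and 46 counts in 143B NC and sgNAT10, and 235 and 82 counts in HOS NC and sgNAT10. Its shift was -2.68 in 143B (95% interval for counting error -3.21 to -2.25) and -1.86 in HOS (-2.25 to -1.50). VGLL3 (chr3:86968885-86969112), a cofactor of TEAD transcription factors, had 181, 50, 203 and 73 counts in the same order, with shifts of -2.33 and -1.81. In both genes each library labelled sgNAT10 was below both NC libraries. A peak in NUP98 (chr11:3779083-3779181), a protein of the nuclear pore, had shifts of -1.77 and -1.72. SLC38A2 (chr12:46361075-46361221), an amino acid transporter, had 257, 115, 742 and 280 counts, shifts of -1.65 and -1.75. FSTL1 (chr3:120396474-120396698), a secreted glycoprotein, had 573, 269, 1131 and 365 counts, shifts of -1.58 and -1.98. CRIM1 (chr2:36464475-36464716), a membrane protein that binds bone morphogenetic proteins, had shifts of -1.60 and -1.58. In SLC38A2, FSTL1 and CRIM1 the level in NC was higher in HOS than in 143B.

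TFRC, the transferrin receptor that brings iron into cells, was chosen after its values were seen: its 5 narrow peaks were the 5 lowest of all in HOS. They lay between chr3:196050679 and chr3:196072192 on the minus strand. In HOS NC they had 420 to 706 counts and in HOS sgNAT10 54 to 116, and in 143B 236 to 307 in NC and 123 to 203 in sgNAT10. Their shifts were -3.29 to -2.91 in HOS and -1.45 to -1.09 in 143B, so all 5 were at least 2-fold lower in both lines. The 5 peaks are of 1 gene and so not replicates, and they were chosen for their low HOS values. Of the 1993 peaks, 29 in 22 genes were at least 4-fold lower in HOS, with a median 143B shift of -1.09. Others among them were in AURKA, a mitotic kinase (HOS -2.39, -2.15 and -2.04 for 3 peaks, 143B -1.47, -1.54 and -0.73). In 4 of the 29 the 143B shift was above 0. They were in ANKRD1 (0.80), SRSF3 (0.95), RRM2 (0.63) and HSPH1 (0.37).

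**Figure D2:**
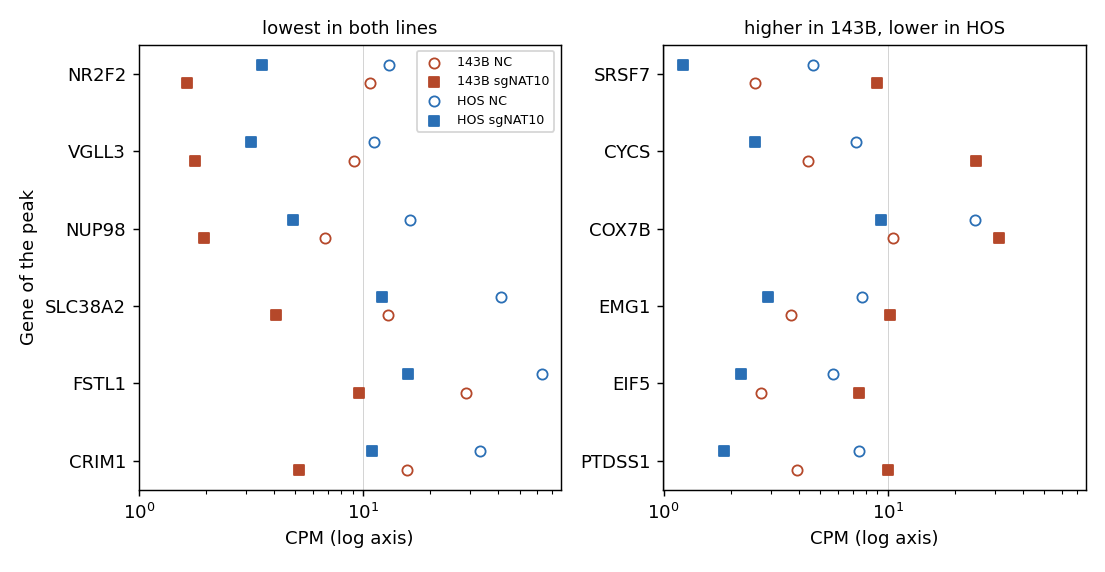
CPM on a log axis for each library (open circles NC, filled squares sgNAT10; red 143B, blue HOS) of the 6 peaks lowest in both lines (left) and the 6 with the largest opposite shifts, higher in 143B and lower in HOS (right). On the left every square lies left of the circle of its line, and on the right the red squares lie right of theirs and the blue squares left.

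Peaks that were higher in both lines were few. A peak in RANBP17 (chr5:171183364-171183472), a nuclear transport receptor, had 51 and 278 counts in 143B and 38 and 147 in HOS (NC first), shifts of 1.93 (interval 1.51 to 2.41) and 1.58 (1.08 to 2.16). COL14A1 (chr8:120340737-120340929), a collagen that binds to fibrils, had 41, 373, 59 and 197 counts, shifts of 2.66 and 1.38. Each library labelled sgNAT10 was above both NC libraries in these 2 peaks. Without 143B sgNAT10 the mean of both would have been under 100 counts. They thus passed the count limit only through that library and had to be high there, as did the CPEB2 and SDK1 peaks below. CPEB2 (chr4:15061518-15061802), which binds polyadenylation elements of messenger RNA, had shifts of 1.72 and 1.35 on 21 to 292 counts. SDK1 (chr7:4224450-4224558), a cell adhesion protein, had 2.46 and 1.29 on 26 to 208 counts, and LOC112268044 (chr9:42900270-42900485) had 2.04 and 1.33 on 67 to 1373 counts. The SKAP1 peak (chr17:48406301-48406483) also met this rule, but its 143B counts of 0 and 2 give no fold, and in HOS it was at least 197-fold higher, taken against a floor of 3 counts in the NC library. SKAP1 encodes an adaptor protein of T cells.

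In 143B, 37 peaks in 37 genes were at least 4-fold higher in the library labelled sgNAT10, and 33 of them were also above 0 in HOS, with a median HOS shift of 0.76. Above 0 in HOS were 29.6% of all 1993 peaks, 63.3% of all peaks tested and 50.4% of well-counted peaks. The share of all peaks tested that passed 4-fold was not computed, here or for the other 4-fold counts. Of these 37 peaks, 22 were 180 to under 210 bp wide and 9 were under 120 bp, while 499 and 367 of all 1993 peaks were. The top ones, named after their values were seen, were in CDH12, a cadherin (142 and 1897 counts in 143B, 243 and 564 in HOS), and PARP15, an ADP-ribosyltransferase (218, 2839, 603 and 1422). PLXNA4, a receptor for semaphorins, had 217 and 2529 counts in 143B and 671 and 1121 in HOS. Their 143B shifts were 3.23, 3.20 and 3.04, and their HOS shifts 0.86, 0.89 and 0.39. The exceptions below 0 in HOS were CYCS, U2SURP, CLDN11 and PSMG1. Without 143B sgNAT10 the mean of each of these exceptions would have been under 100 counts. They passed the count limit only through that library and had to be high there. This also held for others of the 37, among them CNGA3, and their number was not counted. In the opposite direction, 202 peaks in 128 genes were at least 4-fold lower in 143B, and 141 of them were above 0 in HOS, with a median HOS shift of 0.35. With DESeq2 size factors this median would move by -0.16 and stay above 0. The lowest was in CHCHD6, a protein of the mitochondrial inner membrane (chr3:126730462-126730698), with 120 and 5 counts in 143B and 93 and 201 in HOS, shifts of -4.77 and 0.76. RGS12, a regulator of G protein signalling, held 3 of the 5 lowest, with 143B shifts of -4.17, -4.12 and -3.96 and HOS shifts of 0.76, 0.79 and 0.68. Without HOS sgNAT10 the mean of the CHCHD6 peak and of these 3 RGS12 peaks would have been under 100 counts. They thus passed the count limit only through that library, which favoured high HOS values. How many of the 202 peaks did so was not counted, so the 141 above 0 in HOS are a description.

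A small group of peaks was far higher in the HOS library labelled sgNAT10. The HOS shift was 3 or more in 26 peaks of 25 genes, whose HOS counts were at most 129 in NC and at least 290 in the library labelled sgNAT10. Of these, 22 had fewer than 100 counts in each 143B library. Of the 26, 20 were 170 to under 200 bp wide and 5 under 110 bp, while 526 and 232 of all 1993 peaks were. In 24 of the 26 the mean over the other 3 libraries was under 100 counts, so these met the rule only through HOS sgNAT10 and had to be high there. A peak in DGKG (chr3:186250412-186250605), a diacylglycerol kinase, had 207 and 36 counts in 143B NC and sgNAT10, 12 and 14331 counts in the HOS pair. Its HOS shift was 9.78 (interval 9.07 to 10.8) and its 143B shift -2.98 (-3.57 to -2.51). INTS4 (chr11:77920808-77920994), a subunit of the Integrator complex, had 67, 13, 4 and 1936 counts, shifts of -2.75 and 8.30. CNTN6, a neuronal adhesion protein with the highest HOS shift of all, had 19, 10, 2 and 4246 counts. In these 3 peaks the HOS library labelled sgNAT10 was far above the other 3 libraries.

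Further peaks of that kind had at most a few counts in the other libraries. ZBTB7C (chr18:48088762-48088940), a zinc finger transcription factor, had 4, 0, 0 and 573 counts and was at least 149.7-fold higher in HOS against the floor of 3 counts. HTR2C (chrX:114792017-114792191), a serotonin receptor, had 4, 0, 2 and 545 counts, a HOS ratio of 214-fold with a shift interval of 5.88 to 10.8. The filter on low counts left 9 of the 1993 peaks out of the edgeR test, in CTNNA3 (2 peaks), TMC7, SKAP1, ZBTB7C, MOGAT1, NEDD9, GNAI1 and HTR2C, all with more than 500 counts in HOS sgNAT10 and fewer than 10 in each other library. Less extreme were ERCC4 (chr16:13922419-13922591), an endonuclease of DNA repair, with 174, 43, 25 and 175 counts, and ALDH1L2 (chr12:105020696-105020994), a mitochondrial folate enzyme, with 62, 18, 73 and 495. Their shifts were -2.48 and 2.42 for ERCC4, and -2.21 and 2.40 for ALDH1L2. In the ERCC4 peak the pattern was a swap, since 143B NC and HOS sgNAT10 were high and the other 2 libraries low. This interval also overlaps the pseudogene RPS26P52 and LOC105371093, whose reads cannot be told apart from those of ERCC4 in these counts. The ERCC4 and ALDH1L2 peaks also passed the count limit only through HOS sgNAT10 and had to be high there.

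The 6 peaks with the largest shifts of the reverse pattern were in CYCS, SRSF7, PTDSS1, COX7B, EMG1 and EIF5. A peak in CYCS (chr7:25122841-25123068), which encodes cytochrome c, had 88 and 699 counts in 143B NC and sgNAT10 and 131 and 59 in HOS, shifts of 2.48 (2.17 to 2.83) and -1.49 (-1.97 to -1.05). COX7B (chrX:77905221-77905375), a subunit of cytochrome c oxidase, had 210, 883, 441 and 215 counts, shifts of 1.57 and -1.38. SRSF7 (chr2:38744925-38745034), a splicing factor, had 51, 251, 84 and 28 counts, shifts of 1.78 and -1.90. In each of these the 143B library labelled sgNAT10 was the highest of the 4. Without it the mean of the CYCS and SRSF7 peaks would have been under 100 counts, so they had to be high there. This also holds for EIF5, EMG1 and PTDSS1 below, but not for COX7B. EIF5 (chr14:103342911-103343134), which acts on the initiator complex of translation, had 54, 209, 103 and 51 counts, shifts of 1.44 and -1.35. EMG1 (chr12:6975800-6975930), a methyltransferase of ribosome assembly, had 74, 288, 138 and 67 counts, shifts of 1.45 and -1.38. PTDSS1 (chr8:96334363-96334523), a phosphatidylserine synthase, had 78, 281, 134 and 43 counts, shifts of 1.34 and -1.97. The last gene shows that peaks of 1 gene can differ: another PTDSS1 peak had shifts of -1.13 in 143B and -2.32 in HOS.

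The 5 peaks with the highest mean level were in RPS29, ARHGEF16, EEF1A1, ANKRD28 and CDK11A. The top one reached a mean of 1546 CPM and lay in RPS29 (chr14:49586631-49586840), a protein of the small ribosomal subunit, with 31642, 27641, 38820 and 33658 counts and shifts of -0.69 and -0.56. This interval also overlaps RN7SL1, the RNA of the signal recognition particle, and the peak in ANKRD28 (chr3:15738577-15738693) overlaps its pseudogene RN7SL4P, with shifts of -0.67 and -0.56. Reads of such near-identical copies cannot be assigned with certainty, and how reads that map to several places were handled is not given. EEF1A1, the elongation factor that brings transfer RNAs to the ribosome, held 2 peaks that differed: at chr6:73517859-73518139 the counts were 6903, 6673, 16090 and 12753 (shifts -0.55 and -0.69), and at chr6:73517522-73517653 they were 2800, 6733, 4978 and 5466 (shifts 0.77 and -0.22). A peak in CDK11A, a cyclin-dependent kinase with a close paralog, had shifts of -0.41 and -0.28. ARHGEF16 (chr1:3456785-3456968), an exchange factor for small GTPases, was the exception, with 3168 and 27558 counts in 143B and 6259 and 14564 in HOS and shifts of 2.62 (2.57 to 2.68) and 0.87 (0.82 to 0.91). Of the 176 peaks with a mean of 1000 or more counts, 67 lay in genes of cytosolic ribosomal proteins. All 78 peaks of those 45 genes, a group chosen after its values were seen, had a median shift of 0.47 in 143B and -0.38 in HOS, which library totals alone made positive in HOS.

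Genes with many narrow peaks showed whether peaks of 1 transcript go together. Across the 366 genes with 2 or more peaks (1046 peaks), the SD of shifts within a gene was 0.65 in 143B, where it was 1.08 over all these peaks, and 0.35 in HOS, where it was 0.93. All peaks had the same sign in 264 of these genes in 143B and in 296 in HOS. Peaks of 1 gene share their RNA, so they are not replicates of a condition.

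SLC7A1, a transporter of cationic amino acids, had 13 peaks. Their 143B median was -1.51 and their HOS median -0.20, while the peak at chr13:29558830-29558953 stood out with 195 and 36 counts in 143B and 231 and 309 in HOS. CHID1, a chitinase-domain protein, had 8 peaks between -2.27 and -1.80 in 143B and between -0.07 and 0.47 in HOS. These 2 genes shared a clear lower level in 143B and a HOS level near that of NC. GRAMD1B, which carries cholesterol between membranes, had 11 peaks that differed along the gene: the 2 at the highest positions (chr11:123610163-123610355 and chr11:123612717-123612904) had 143B shifts of -1.89 and -2.13, and the other 9 lay between -0.76 and -0.17. UBASH3B, a phosphatase that acts on tyrosine kinases and had as many peaks as CHID1, showed the other pattern, with a median of -0.48 in 143B and -1.13 in HOS. Among genes with fewer peaks, named after their values were seen, the 6 of SHANK1, a scaffold of synapses, had HOS shifts of 0.79 to 1.39 and 143B shifts of -2.89 to -1.40. The 6 of GMEB2, a DNA-binding protein of glucocorticoid response, had 0.71 to 0.98 and -2.93 to -1.37. The SHANK1 peaks had median counts of 122.5, 32.5 and 104 in 143B NC, 143B sgNAT10 and HOS NC, and 305 in HOS sgNAT10. Those with few counts elsewhere passed the count limit only through HOS sgNAT10 and had to be high there. In TOP1, a DNA topoisomerase, 4 peaks were above 0 in 143B (0.14 to 0.84) and the one nearest its 3′ end was at -1.58.

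**Figure D3:**
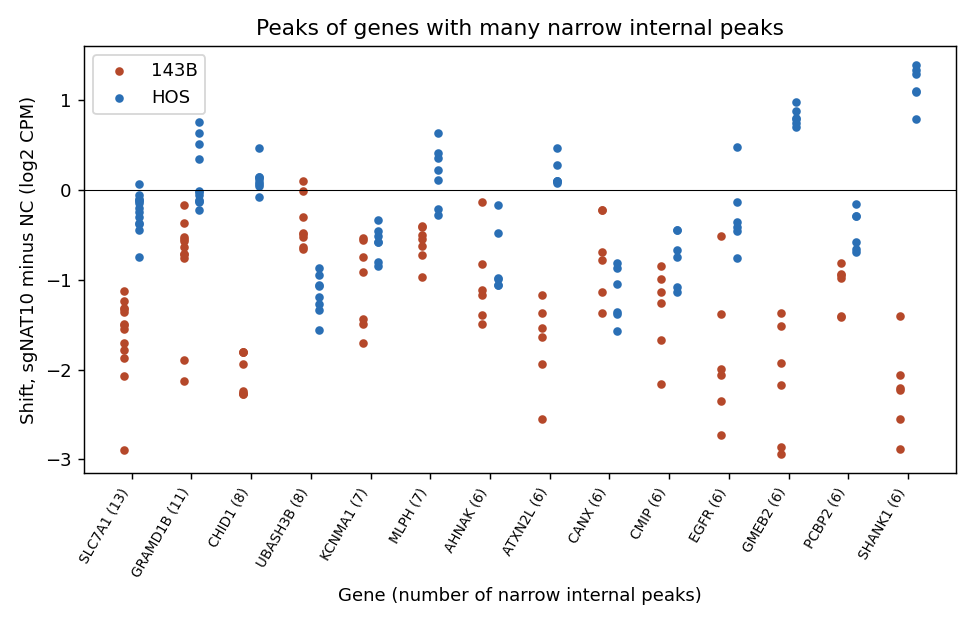
Shift (log2 CPM, library labelled sgNAT10 minus NC) of every narrow internal peak in the genes shown, each with 6 or more, 143B in red and HOS in blue, with the number of peaks in brackets. Red points of SLC7A1, CHID1, GMEB2 and SHANK1 all lie below 0, and the blue points of SHANK1 and GMEB2 all lie above 0. SHANK1 peaks with few counts elsewhere passed the count limit only through HOS sgNAT10.

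Position in the gene could be read for the 1592 peaks whose gene has a known strand. In 143B the median shift was nearest to 0 close to the 3′ end of the gene span, at -0.06 for the 136 peaks whose centre lay 1000 to 2000 bp from it, and -0.87 for the 409 peaks 20000 to 100000 bp away. In HOS the order was turned, from -0.67 under 1000 bp (104 peaks) to -0.17 at 100000 bp or more (199 peaks). The median of peaks within 2000 bp of the 3′ end minus that of peaks at 20000 bp or more was 0.48 in 143B and -0.45 in HOS. Gene length ran along with this: the HOS median was -0.48 in spans under 5000 bp and -0.03 in spans of 200000 bp or more, and the 143B median was -0.02 in spans of 5000 to 10000 bp and -0.84 at 20000 to 50000 bp. Distance and length were not separated across genes. Within 297 genes that had 2 or more peaks and a known strand, the peak nearest the 3′ end minus the one nearest the 5′ end had a median difference of 0.25 in 143B (above 0 in 194 genes) and 0.03 in HOS (above 0 in 160), at a median distance of 7946 bp. The turn seen across genes in HOS was thus not seen between the first and last peak of a gene.

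**Figure D4:**
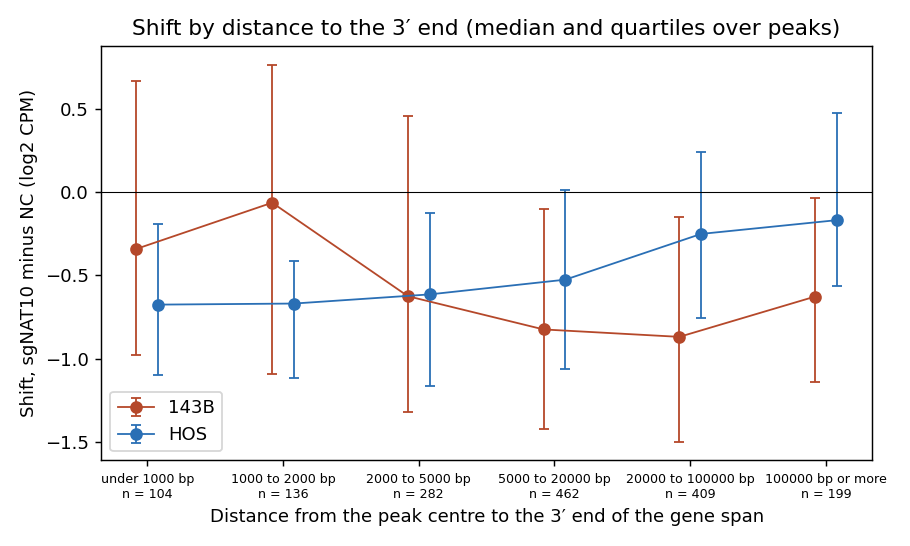
Median shift (points) with quartiles (bars) over narrow internal peaks, by the distance from the peak centre to the 3′ end of the gene span, 143B in red and HOS in blue, with the number of peaks under each bin. The HOS medians go from -0.67 under 1000 bp to -0.17 at 100000 bp or more, while the 143B medians are nearest to 0 at 1000 to 2000 bp (-0.06).

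Width and height also went with the shift. The 143B median was -1.07 for the 206 peaks of 250 bp or more and -0.60 for the 499 peaks of 180 to under 210 bp, and the HOS median was -0.08 and -0.26 for the same peaks, against -0.63 for the 333 peaks of 150 to under 180 bp. By mean count, the HOS median went from -0.27 at 100 to under 150 counts (612 peaks) to -0.72 at 500 to under 1000 (173 peaks), and the 143B median stayed between -0.79 and -0.77 below 1000 counts and was -0.31 for the 176 peaks of 1000 or more. At the edges of the rule, the 162 peaks with a mean of 100 to 110 counts had medians of -0.78 and -0.13, and the 196 just under 100 (90 or more) had -0.70 and -0.15. The 65 peaks of 280 bp or more had -1.11 and 0.03, and the 57 internal ones of 300 to 320 bp had -1.35 and -0.21. The 31 peaks at most 600 bp from a gene end had 0.10 and -0.48, and the 43 narrow ones at over 400 to 500 bp had 0.38 and -0.70. The medians were alike on both sides of the count limit, and those just inside the distance limit had the signs of the peaks at gene ends.

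Grouped by function, the peaks of nuclear regulators and those of protein folding and transport differed in which line was lower. No list holds a peak that passed the edgeR test across all peaks, so counts and medians are given beside those of all 1993 peaks (medians -0.75 and -0.41, 39.0% and 23.5% at least 2-fold lower). The 61 peaks in 21 of 39 chromatin regulators had a median of -1.49 in 143B, with 42 at least 2-fold lower, and 0.11 in HOS, with 1 at least 2-fold lower, a HOS median that turned negative with DESeq2 size factors. The transcription machinery (10 peaks) had medians of -1.61 and -0.32, the latter turning positive with library totals. POLR2A, the largest subunit of RNA polymerase II, had 261, 110, 431 and 459 counts in one peak and 256, 106, 304 and 506 in another. In both the 143B library labelled sgNAT10 was the lowest of the 4.

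The lists of messenger RNA processing and translation had medians below 0 in both lines and below that of all peaks in HOS. The 54 peaks in 27 of 43 splicing and hnRNP genes had medians of -0.56 and -0.89, with 17 and 22 at least 2-fold lower in 143B and HOS. HNRNPA1 (1788, 1500, 2535 and 3453 counts) and HNRNPA3 (2057, 830, 1078 and 1644), both RNA-binding proteins of the nucleus, had the best-counted peaks. Their HOS shifts of 0.09 and 0.26 lay on the other side of 0 from the list's median, and that of HNRNPA1 turned negative with DESeq2 size factors. The 32 peaks of translation factors had medians of -1.04 and -0.61, with 18 at least 2-fold lower in 143B and 9 in HOS, and their best-counted peaks were those of EEF1A1 above. The 13 peaks of ribosome assembly genes had -0.39 and -0.97, and their best-counted peaks were in NPM1 and NCL, abundant proteins of the nucleolus. NPM1 had 1982, 2130, 3190 and 2197 counts (shifts -0.39 and -0.89) and NCL 1655, 1808, 2052 and 1349 (-0.37 and -0.96). In NPM1 and NCL the raw counts in 143B were slightly higher in the library labelled sgNAT10, and the scaling made the shift negative.

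The lists of folding, nuclear transport and the cell cycle had lower medians in HOS than in 143B. Of 37 peaks in 18 of 24 chaperone genes, 32 were at least 2-fold lower in HOS and 11 in 143B, with medians of -1.38 and -0.48, and no HOS shift was above 0. HSPA8, the constitutive Hsp70 of the cytosol, had 3130 and 2000 counts in 143B and 4889 and 976 in HOS, shifts of -1.14 and -2.67 (interval -2.78 to -2.58). HSP90AB1, a cytosolic Hsp90, had 1660, 1768, 3050 and 1563 counts, shifts of -0.41 and -1.32. The HOS library labelled sgNAT10 was the lowest of the 4 for HSPA8, and for HSP90AB1 both libraries labelled sgNAT10 were below both NC libraries. Of 19 peaks in 10 of 20 genes of the nuclear pore and nuclear transport, 16 were at least 2-fold lower in HOS and 8 in 143B, with medians of -1.66 and -0.88. RAN, the GTPase that drives nuclear transport, had a peak of 1466, 2794, 2803 and 1730 counts (shifts 0.43 and -1.05) and another of 1324, 1090, 2943 and 1535 (-0.78 and -1.29). The 2 RAN peaks agreed in HOS and had opposite signs in 143B. The 15 peaks of cell cycle and replication genes had medians of -0.91 and -1.59, with 10 at least 2-fold lower in HOS. Both best-counted peaks of that list were in CCND1, the G1 cyclin D1, with 757, 504, 1182 and 632 counts in one and 629, 341, 1229 and 520 in the other. Both CCND1 peaks were more than 2-fold lower in both lines.

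The lists of metabolism, secretion and protein turnover had medians below 0 in both lines. The 17 peaks of glycolysis and central carbon genes had medians of -0.69 and -1.03, and the best-counted were in ENO1, an enolase, with 1411, 1231, 3027 and 1325 counts and with 1151, 992, 2445 and 1065. Their shifts were nearly the same (-0.69 and -0.71 in 143B, -1.54 and -1.55 in HOS). Only 3 peaks lay in genes of sterol and lipid synthesis, with medians of -1.25 and -2.62 and 2 at least 2-fold lower in each line. Among them one in SCD, which desaturates fatty acids, had 905, 337, 1231 and 1082 counts (shifts -1.92 and -0.54). It was the highest of the 3 in HOS and the lowest in 143B. The 9 peaks of vesicle traffic genes had medians of -1.22 and -1.19. In that list, LAMP1, a lysosomal membrane protein, had 299, 140, 603 and 334 counts, and CLTC, the clathrin heavy chain, 227, 135, 490 and 219. Both were more than 2-fold lower in both lines. The 9 peaks of ubiquitin ligases and proteases had -0.77 and -1.04, with TRIP12 at -1.16 and -1.08 and MYCBP2, like TRIP12 a ubiquitin ligase, at -0.77 and -1.15.

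At the cell surface and in the matrix the lines parted again. The 8 extracellular matrix peaks in 7 of 30 genes had a median of -1.31 in 143B and 0.33 in HOS, the latter above 0 under every scaling. The best-counted of them, COL4A2, a chain of basement membrane collagen whose sequence is shown above, had 289, 132, 512 and 475 counts (shifts -1.62 and -0.46). SPARC, which binds collagen, had 191, 134, 524 and 182 counts (-1.002 and -1.87), so these 2 did not share the HOS median of their list. The 30 peaks of the actin, myosin and tubulin cytoskeleton had medians of -0.98 and -0.04, the latter turning positive with library totals, taken with or without the ribosomal RNA block of chromosome 21. VIM, the intermediate filament of mesenchymal cells, had a peak with 4535, 1714, 6786 and 8663 counts and the one shown above in part with 2453, 1212, 4385 and 5991. Their 143B shifts were -1.90 and -1.51 and their HOS shifts 0.00095 and 0.10. The HOS value of the first did not leave the counting error (interval -0.05 to 0.05). The 11 peaks of integrins and adhesion genes had medians of -1.08 and -0.59. CTNNB1, the beta-catenin of cell junctions and Wnt signalling, had 273, 157, 699 and 242 counts (-1.29 and -1.88), and ZYX, a focal adhesion protein, 275, 125, 434 and 521 (-1.63 and -0.09).

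Growth signalling was lower mostly in 143B. The 22 peaks in 9 of 31 genes of kinases and growth signalling had medians of -1.41 and -0.41, the latter turning positive with library totals, with 16 at least 2-fold lower in 143B and 4 in HOS. AXL, a receptor tyrosine kinase, had 568, 553, 789 and 766 counts (shifts -0.54 and -0.39) and MAP4K4, a kinase of stress signalling, 819, 559, 534 and 515 (-1.05 and -0.40). The 10 peaks of YAP-TEAD and TGF-beta genes had medians of -0.86 and -1.12 and a wide spread. In this list CCN1, a matricellular protein and YAP target, had 502, 214, 1268 and 540 counts (-1.72 and -1.58), and LTBP1, which holds latent TGF-beta in the matrix, 558, 330, 567 and 200 (-1.25 and -1.85). Both were lower by more than 2-fold in both lines. The 21 peaks in 10 of 26 genes reported as ac4C targets of NAT10 had medians of -0.98 and -0.38, near those of all 1993 peaks, and the HOS median turned positive with library totals. Their best-counted peaks were in HSP90AA1, a stress-inducible Hsp90, with 1186, 2344, 1943 and 664 counts and with 1243, 1804, 1998 and 778. The HSP90AA1 shifts were 0.48 and 0.04 in 143B and -1.90 and -1.71 in HOS, so these peaks were lower in 1 line only.

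**Figure D5:**
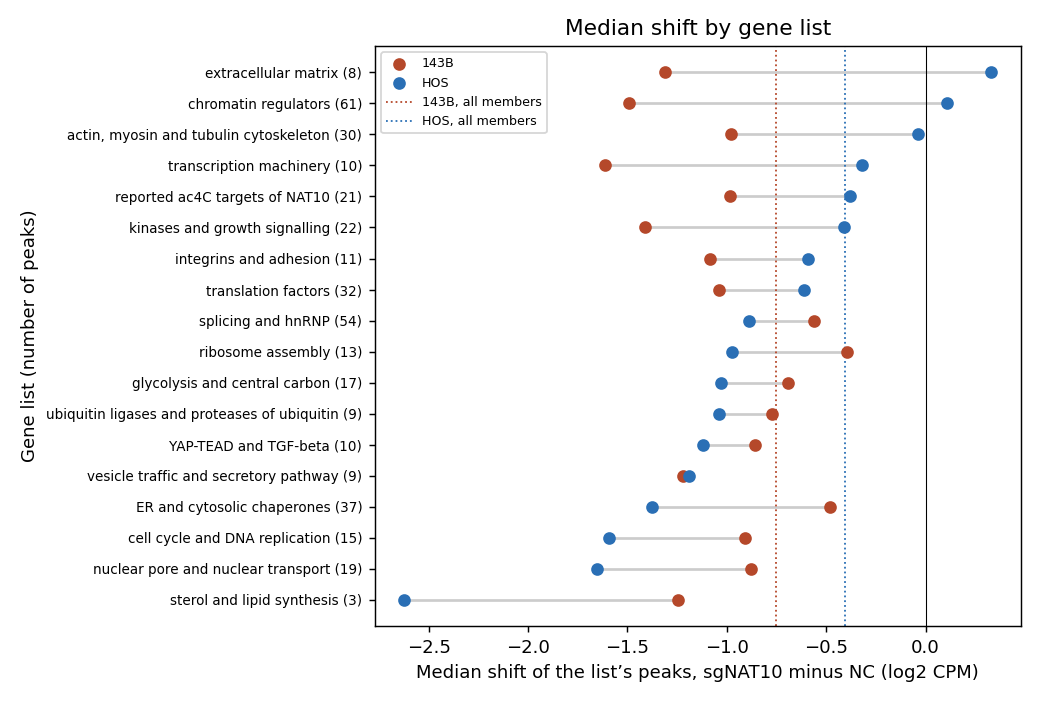
Median shift (log2 CPM, library labelled sgNAT10 minus NC) of the narrow internal peaks of each gene list, 143B in red and HOS in blue, with the number of peaks in brackets; dotted lines are the medians of all 1993 peaks. Chromatin regulators (-1.49 and 0.11) and extracellular matrix (-1.31 and 0.33) lie furthest apart, the nuclear pore list is lower in HOS (-1.66) than in 143B (-0.88), and the HOS median of chromatin regulators turned negative with DESeq2 size factors.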

How the data were processed

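The deposited values are counts: raw read counts per peak interval, in a table for 143B and one for HOS that list the same 31395 intervals. Per the submitters' processing notes the build was GRCh38 and the tools included FastQC, STAR, SAMtools and deepTools. The peak caller, counting tool, strand setting and treatment of multi-mapped reads are not given in the sources used here, nor is whether starts count from 0 or 1 (the same 1993 peaks are found either way). Column names give the line and genotype but not the assay. The table names say RIP counts, so they were taken as acRIP, and the 4 input samples among the 8 in the labels were not used here.

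Peaks were compared with gene spans of GRCh38.p14 (RefSeq, 59792 genes, 20056 protein-coding). The members and lists were chosen with earlier results of these data known. Shifts are differences in log2 CPM computed from the deposited counts with TMM factors (edgeR 4.0.16) and a prior count of 1, and intervals are exact conditional binomial bounds at 95%. The test was edgeR's quasi-likelihood test with line as a block, filterByExpr (minimum count 10, minimum total 15) and Benjamini-Hochberg adjustment over all peaks tested at 0.05, checked on simulated data. DESeq2 1.42.0 and limma 3.58.1 were alternatives, beside other scalings, filters and limits of the rule. Totals cover peaks only and are not sequencing depth. The lines are the only repeats, and nothing within a line was tested.

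Named peaks, 1 per gene in each of the first 4 groups, were the 6 highest in both lines, the 6 lowest in both, the 6 with the largest opposite shifts in each direction, those of the 5 genes with the most peaks, the 5 with the highest mean CPM and the 2 best counted of each list. Others were named after their values were seen, as stated beside them or, for CNTN6, CHCHD6, RGS12, AURKA and genes listed with a count, here. Some genes that these rules name are not reported here, though their peaks count in all totals, medians and lists.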

Additional observations from a re-analysis of the deposited data

Results flagged for a closer look

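The shifts of the 2 lines went opposite ways in 12 named peaks, and this difference was not tested, since each line has 1 library of each genotype. HOS minus 143B was 12.75 (log2) for the peak in DGKG, 11.05 in INTS4, 4.90 in ERCC4 and 4.60 in ALDH1L2. It was 11.57 in ZBTB7C and 9.70 in HTR2C, where 3 libraries had 4 counts or fewer, so these 2 values depend on the prior count. In the other direction it was -3.97 in CYCS, -3.68 in SRSF7, -3.31 in PTDSS1, -2.95 in COX7B, -2.83 in EMG1 and -2.79 in EIF5. These peaks were named for that difference, so it is a description.

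The median shifts of 2 gene lists also had opposite signs in the lines: HOS minus 143B was 1.64 for the 8 extracellular matrix peaks and 1.60 for the 61 peaks of chromatin regulators. These differences were not tested either.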

How the results depend on the processing

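The median shift in 143B (-0.75) stayed below 0 under every alternative run. It was -0.84 with DESeq2 size factors, -0.54 with upper quartile factors, -0.41 with library totals alone, -0.61 with totals without the ribosomal RNA block of chromosome 21 (an alternative added after seeing the data), -0.68 for peaks with 50 or more counts in each library, -0.80 for widths under 150 bp, -0.64 with 1 peak per gene and -0.85 when the mean count of 100 was asked of the HOS libraries alone. The HOS median (-0.41) was 0.18 with library totals alone, its only value above 0. Otherwise it was -0.56 with DESeq2 size factors, -0.50 with upper quartile factors, -0.36 with totals without the ribosomal RNA block, -0.48 both for a mean of 200 or more and for 50 or more counts in each library, -0.52 for widths under 150 bp, -0.34 for peaks more than 2000 bp from both ends, and -0.45 when the mean was asked of the 143B libraries alone.

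With library totals alone, 322 peaks were 2-fold higher and 493 lower in 143B (main 186 and 778), 310 higher and 119 lower in HOS (main 90 and 469), and 147 went opposite ways, lower in 143B (main 61). With upper quartile factors the 143B counts were 267 and 587. Stricter rules hold fewer peaks. With a mean of 200 or more, 81 were higher and 383 lower in 143B, in HOS 29 higher and 275 lower, with 16 opposite. With widths under 150 bp the same counts were 57 and 274, 13 and 177, and 9. With 50 or more counts in each library 21 were higher in HOS and 11 opposite, with 1 peak per gene 442 were lower in 143B and 39 opposite, and with the mean asked of the 143B libraries alone 36 were higher in HOS.

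The edgeR test called 1 peak without the filter, which was none of those described, and 6 among peaks with a mean of 100 or more, where fewer peaks were tested. The difference by distance to the 3′ end kept its direction in both lines under the alternatives run. Of 164 values of named peaks and gene lists, 116 moved by more than the spread allowed with library totals alone, 44 with upper quartile factors, 37 with DESeq2 size factors, 26 with totals without the ribosomal RNA block and 2 with a prior count of 5. The test paired the genotypes by line, and without line as a block edgeR also called 0 peaks, with 499 at an unadjusted p under 0.05. No pairing by replicate number could be made, since each line and genotype has 1 library, and for the same reason leaving out a library was not run.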
